A study of Homo sapiens with 3 samples.

Results

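The comparison set the mature miRNAs of SK-MEL-2 cells exposed to a plasma jet for 3 min against those of SK-MEL-2 cells left untreated. SK-MEL-2 is an established human melanoma cell line. A plasma jet is a stream of partly ionised gas that delivers reactive oxygen and nitrogen species at low heat. Per the labels, all cells grew in RPMI-1640 medium with 10% serum and antibiotics, the exposed cells were kept for 2 more days, and small RNA was sequenced from total RNA of Day 2. Not given in the sources used here are the gas, the device and the distance to the cells. Of the 3 libraries in the series, 2 belong to this comparison, 1 per group, and the library of cells exposed for 5 min is set beside them. A miRNA was included where its counts averaged 20 or more across the 3 libraries, a minimum that 231 of the 2588 listed miRNAs met.

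With 1 library per group there is no replicate and no test. Each ratio is the scaled count after 3 min over the scaled count of the control, with an exact 95% interval that covers counting error only, and it compares these libraries rather than the conditions. The control library held 1045482 counts, the 3 min library 966943 and the 5 min library 615645, so that 1 count was worth 0.956, 1.03 and 1.62 CPM. A count of 0 allows up to 3 counts. The 10 leading miRNAs of the control held 70.2% to 70.8% of every library, and the miRNAs under the minimum held 0.169% to 0.295%. Just inside the minimum lay miR-6514-3p, exactly on it with a ratio of 0.96, and miR-362-3p (mean 20.3, ratio 0.935). Just outside it lay miR-30c-1-3p (mean 19.7, ratio 1.09) and miR-3907 (mean 19.3, ratio 0.677).

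A miRNA is a short RNA cut from a hairpin, and it guides an Argonaute protein to messenger RNAs that it represses. The seed, bases 2 to 8 from its 5′ end, does most of the target pairing, so miRNAs with the same seed form a family with largely shared targets. Hairpins that lie close together on a strand are often cut from 1 primary transcript and form a genomic cluster. Each hairpin can give 2 mature miRNAs, named 5p and 3p after the arm, of which 1 is usually kept and the other mostly degraded. In melanocytes and melanoma, miRNAs take part in the control of MITF, the master regulator of pigment cells, and of the cell cycle.

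The mature sequences below are from RefSeq on GRCh38.p14, with the seed in capitals, and 206 of the 231 miRNAs had one there. The miRNAs of the following lines lay far from control, and they are shown because no seed occurs among them more than 1 time.
miR-539-3p: aUCAUACAaggacaauuucuuu
miR-3176: aCUGGCCUgggacuaccgg
miR-4497: cUCCGGGAcggcugggc
miR-3916: aAGAGGAAgaaauggcugguucucag
miR-4791: uGGAUAUGaugacugaaa
miR-1246: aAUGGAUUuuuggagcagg
miR-4443: uUGGAGGCguggguuuu
miR-708-5p: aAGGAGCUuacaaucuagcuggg
miR-184: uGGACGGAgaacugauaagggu
miR-1261: aUGGAUAAggcuuuggcuu
miR-1237-5p: cGGGGGCGgggccgaagcgcg
miR-4454: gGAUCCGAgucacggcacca
miR-340-3p: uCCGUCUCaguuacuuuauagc

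The next lines show families in which 1 member was at least 1.5-fold from control and its seed mates were not. These are miR-148a-3p with miR-148b-3p and miR-152-3p, miR-424-5p with miR-16-5p and miR-15b-5p, and miR-215-5p with miR-192-5p.
miR-148a-3p: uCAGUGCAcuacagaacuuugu
miR-148b-3p: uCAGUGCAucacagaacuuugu
miR-152-3p: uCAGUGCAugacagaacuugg
miR-424-5p: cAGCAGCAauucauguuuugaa
miR-16-5p: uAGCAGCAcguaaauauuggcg
miR-15b-5p: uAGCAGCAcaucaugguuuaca
miR-215-5p: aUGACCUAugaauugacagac
miR-192-5p: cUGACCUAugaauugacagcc

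The last lines show families whose members lay on the same side of control and whose summed counts were at least 1.25-fold from it.
miR-221-3p: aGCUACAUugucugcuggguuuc
miR-222-3p: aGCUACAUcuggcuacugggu
miR-29a-3p: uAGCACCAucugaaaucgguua
miR-29b-3p: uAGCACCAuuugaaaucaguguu
miR-29c-3p: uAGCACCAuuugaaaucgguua
let-7a-3p: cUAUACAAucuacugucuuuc
let-7b-3p: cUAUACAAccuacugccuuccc
let-7f-1-3p: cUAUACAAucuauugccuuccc
miR-1260a: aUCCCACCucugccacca
miR-1260b: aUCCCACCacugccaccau

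Most miRNAs stayed near control. The median log2 ratio over the 231 was 0.05 with quartiles of -0.14 and 0.24, and 164 miRNAs (71.0%) were within 1.25-fold. At 2-fold, 5 miRNAs were higher (2.16% of the 231) and 2 lower (0.866%). At 1.5-fold, 16 were higher (6.93%) and 12 lower (5.19%). With TMM or DESeq2 size factors over all listed miRNAs, the 2-fold counts were 5 higher and 4 lower. The counting interval lay wholly above 1 for 54 miRNAs (23.4%) and wholly below 1 for 33 (14.3%), and with DESeq2 size factors over all listed miRNAs the split was 32 above and 53 below. With TMM over all listed miRNAs it was 36 and 48, and with DESeq2 size factors over the 231 it was 43 and 42. The other 6 scalings lowered every log2 ratio by 0.013 to 0.074, so a log2 ratio between 0 and 0.074 changes sign under at least 1 of them.

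**Figure D1:**
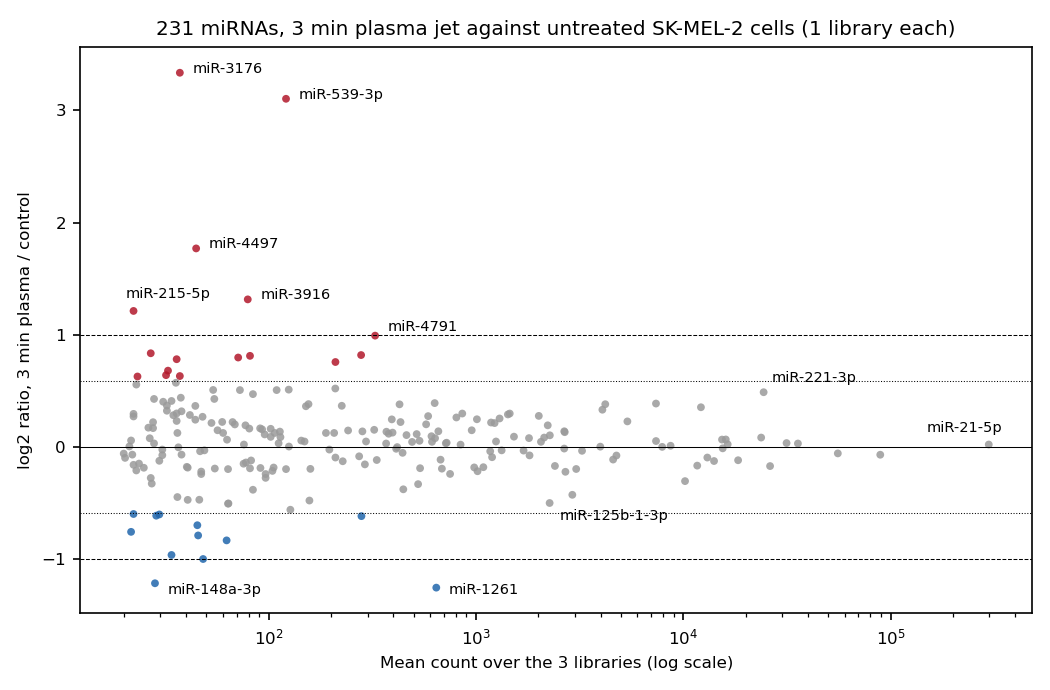
Each point is 1 of the 231 miRNAs, by its mean count over the 3 libraries (x axis, log scale) and its log2 ratio of 3 min plasma to control (y axis); red and blue mark miRNAs at least 1.5-fold higher or lower, dotted lines 1.5-fold and dashed lines 2-fold. The spread narrows to the right, and no miRNA averaging 1000 counts or more passes a dotted line.

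The size of the differences went with abundance. Among the 100 miRNAs averaging 20 to 100 counts, 12 were at least 1.5-fold higher and 10 lower, and the SD of the log2 ratio was 0.58. Among the 73 with a mean of 100 to 1000, 4 were higher and 2 lower, with an SD of 0.48. The 58 that averaged 1000 or more lay between -0.50 and 0.49, with an SD of 0.20, yet 42 of them had a counting interval off 1, since deep counts give narrow intervals. miRNAs numbered 1000 or above in the miRNA registry, which were mostly annotated late from sequencing, made up 37 of the 231 (16%), 8 of the 16 higher and 7 of the 12 lower. These 37 had a median mean count of 48.3, against 218 for the other 194, so number and abundance moved together. Base composition did not follow the ratio: across the 206 miRNAs with a sequence, which share the same libraries, GC content and log2 ratio had a Pearson r of -0.008 and a Spearman rho of -0.04. GC content ranged from 27.3% to 84.2% in the higher set (13 with a sequence), from 36.4% to 90.5% in the lower set (11) and up to 90.9% overall. A 5′ U, a base that Argonaute favours, opened 3 of 13 in the higher set (23.1%), 4 of 11 in the lower set (36.4%) and 97 of 206 overall (47.1%).

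Highest after 3 min were miRNAs of low abundance from unrelated loci. miR-3176 was counted 4 times in the control, 37 times in the 3 min and 71 times in the 5 min library, which is a ratio of 10.1 (3.63 to 39.0) for 3 min. With so few control counts, miR-3176 met the count minimum only through the exposed libraries, where it was high. Its hairpin MIR3176 lies in an intron of CAPN15 (chr16:543277-543366, GRCh38, GENCODE v29, as for all positions here). miR-539-3p had 24, 189 and 151 counts in the same order, a ratio of 8.59 (5.60 to 13.8), the largest of any miRNA with a mean above 100. Its hairpin MIR539 lies at chr14:101047321-101047398, in an intron of the long noncoding RNA MIR381HG. This is the imprinted chromosome 14 region, whose miRNA hairpins are expressed from the maternal copy. The chain of 42 neighbouring hairpins around MIR539, each at most 50 kb from the next, spans 101022066 to 101066801 and has 73 listed mature miRNAs. Of these, 22 had a count in the control or 3 min library, and miR-539-3p alone met the minimum. The others together had 21, 35 and 60 counts, a ratio of 1.82 (1.03 to 3.29), while the opposite arm miR-539-5p had 0 counts in every library. miR-337-3p, from the hairpin MIR337 elsewhere in the region (chr14:100874493-100874585), had 32, 47 and 19 counts, a ratio of 1.60 (1.001 to 2.60), and the other entries of its chain had 9, 18 and 25 together. These sums are small, so the region was seen mainly through miR-539-3p.

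Several late-numbered miRNAs were higher on few counts. miR-4497 (chr12:109833348-109833436, no gene on its strand) had 8, 25 and 101 counts, a ratio of 3.41 (1.49 to 8.75). miR-3916 had 39, 89 and 110, a ratio of 2.49 (1.69 to 3.73), and its hairpin overlaps an exon of the transcribed pseudogene AL390728.4 (chr1:247201967-247202060). miR-4791 (chr3:19314848-19314931, no gene on its strand) had 210, 383 and 386, a ratio of 1.99 (1.68 to 2.37) and the narrowest interval of the 16. miR-4497, miR-7704 and miR-215-5p met the count minimum only through their 5 min counts, so their place among the 16 higher miRNAs depends on that library. In miR-4497, miR-3916 and miR-4791 the 5 min count exceeded that of the deeper 3 min library. miR-4792 had 100, 155 and 375 counts, a ratio of 1.69 (1.31 to 2.20), and miR-4443 had 64, 102 and 48, a ratio of 1.74 (1.26 to 2.42). miR-7704, whose hairpin overlaps an exon of HOXD1 (chr2:176188843-176188901), had 7, 10 and 79 counts, and its ratio of 1.56 (0.536 to 4.83) was not distinguishable from 1 at this depth. For miR-7704, miR-1246, miR-4497 and miR-4792 the 5 min ratios were 19.02, 16.4, 21.3 and 6.32. Both exposures share the control library.

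miR-1246 and 7 other measured miRNAs belong to a list of 11 entries whose sequence overlaps another small RNA, such as the U2 small nuclear RNA for miR-1246, ribosomal RNA or transfer RNA. miR-1246 had 68, 110 and 660 counts, a ratio of 1.76 (1.29 to 2.42) for 3 min. On the other side stood miR-4454 with 99, 51 and 38 counts, 1.78-fold lower (1.26 to 2.55), and miR-1260a with 76, 43 and 17, 1.62-fold lower (1.10 to 2.41), both of which resemble transfer RNA fragments. Between them lay miR-7641 with 117 and 138 counts (ratio 1.29, 0.999 to 1.66), miR-1290 with 26 and 29 (1.22, 0.692 to 2.15), miR-663a with 38 and 42 (1.21, 0.759 to 1.92), miR-6087 with 194 and 197 (1.11, 0.904 to 1.36) and miR-1260b with 67 and 52 (0.847, 0.578 to 1.24). The 8 summed to 685 control and 662 exposed counts, a ratio of 1.05 (0.946 to 1.18), with 1 member of 8 at least 1.5-fold higher and 2 lower, beside 6.93% and 5.19% of all 231. The counts do not tell a miRNA from a fragment of the RNA it overlaps.

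Of 10 miRNAs linked to p53, the damage-response transcription factor, 6 met the minimum. All 6 had ratios above 1, as did most of the 231 under the scaling used here. Only miR-34c-5p and miR-143-3p had a counting interval wholly above 1, beside 23.4% of all 231, and miR-107 changes sign with the scaling. The 6 summed to 346 control and 414 exposed counts, a ratio of 1.31 (1.13 to 1.51). Their median log2 ratio was 0.38, against 0.05 over all 231, and 2 of the 6, miR-34c-5p and miR-215-5p, were at least 1.5-fold higher, beside 6.93% of all 231. Of these 2, miR-215-5p met the minimum only through its 5 min count, and its 3 min interval includes 1. miR-34c-5p (MIR34C, chr11:111513439-111513515), of the miR-34 family that p53 induces directly, had 59, 95 and 90 counts, a ratio of 1.76 (1.26 to 2.48). miR-449a, which carries the miR-34 seed but comes from another locus, had 33, 45 and 29, a ratio of 1.49 (0.929 to 2.41). Their family sum of 92 against 140 counts gave 1.66 (1.27 to 2.18), the highest of any family here. miR-34a-5p was below the minimum with 17 and 21 counts, and miR-34b-3p with 5 and 9.

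miR-215-5p and miR-192-5p, induced by p53 and abundant in gut and liver epithelium, are identical at 19 of 21 bases. miR-215-5p (chr1:220117853-220117962) had 8, 17 and 42 counts, a ratio of 2.32 (0.949 to 6.21). miR-192-5p had 73, 75 and 94, a ratio of 1.12 (0.801 to 1.57), and their sum gave 1.24 (0.909 to 1.69), within counting error of 1. miR-194-5p, from hairpins beside both MIR215 and MIR192, had 34, 38 and 53 counts, a ratio of 1.22 (0.748 to 1.997). The remaining members were miR-143-3p at 85 and 108 counts (1.39, 1.03 to 1.86) and miR-107 at 87 and 81 (1.02, 0.741 to 1.39). None of 7 epithelial markers met the minimum. They summed to 16 control, 29 exposed and 44 counts after 5 min, miR-205-5p was at 0 throughout, and their part in the p53-linked result was not tested.

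**Figure D2:**
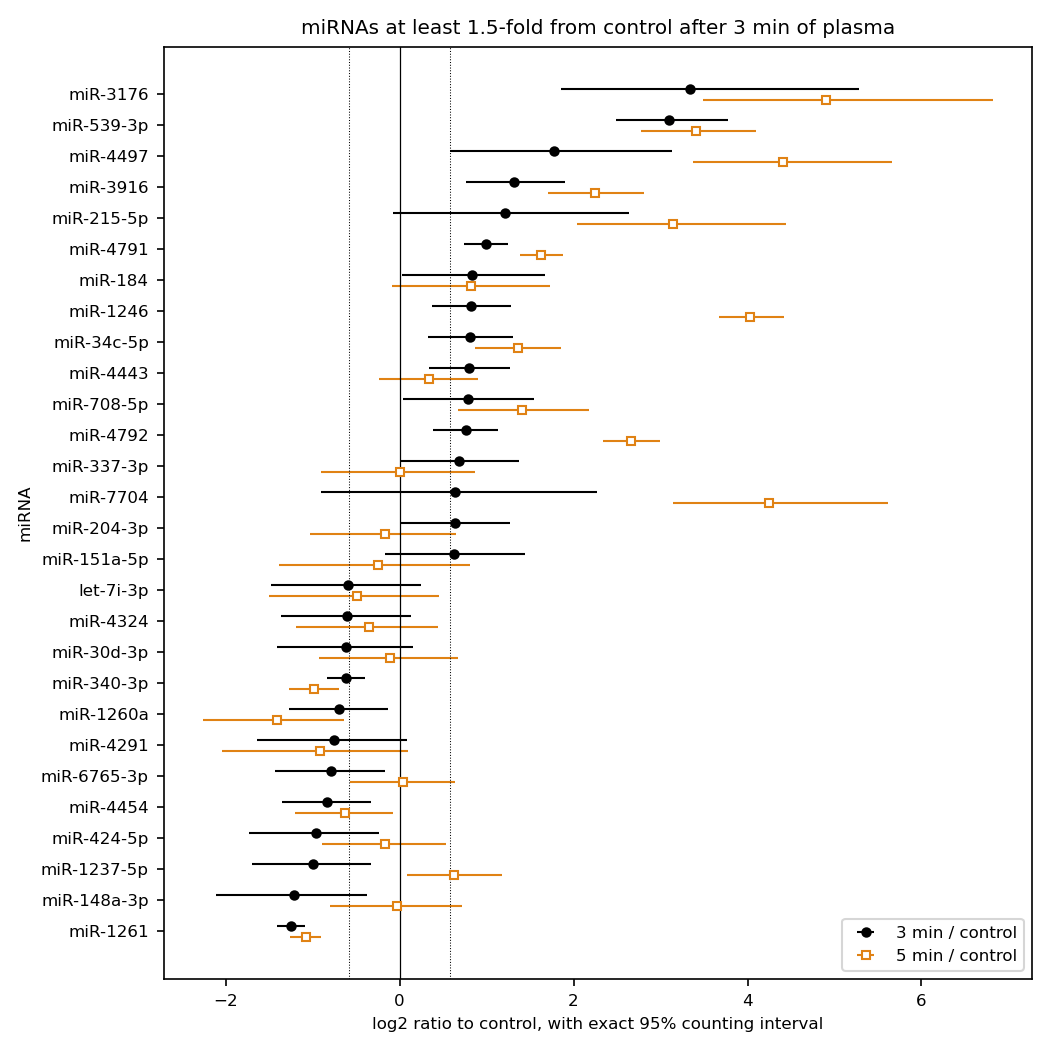
The 28 miRNAs at least 1.5-fold from control after 3 min are ordered by that log2 ratio (filled circles), with the 5 min log2 ratio (open squares) and exact 95% counting intervals as bars; dotted lines mark 1.5-fold. Intervals of 7 of the 28 at 3 min include 1, and miR-1246, miR-7704 and miR-4497 are among the miRNAs whose open squares lie far to the right of their filled circles, together with miR-215-5p, miR-4792, miR-1237-5p and miR-3176.

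The rest of the higher set had smaller ratios. miR-184, a miRNA of lens and corneal epithelium, had 22, 36 and 23 counts, a ratio of 1.79 (1.02 to 3.19). miR-708-5p, from an intron of TENM4 (chr11:79402022-79402109), had 26, 41 and 41, a ratio of 1.72 (1.03 to 2.93). Its seed mate miR-28-5p, a repressor of the antioxidant regulator NRF2, had 173 and 165, a ratio of 1.04 (0.836 to 1.30). miR-204-3p had 38, 54 and 20 counts (1.55, 1.005 to 2.41) and miR-151a-5p 24, 34 and 12 (1.55, 0.890 to 2.73). Both are the scarcer arm of their hairpin in these libraries: miR-204-5p had 2608 and 2535 counts (1.06, 1.004 to 1.12) and miR-151a-3p had 1558 and 1341 (0.939, 0.872 to 1.01).

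Lowest after 3 min was miR-1261, an intergenic miRNA with no gene on its strand (chr11:90869121-90869202). Its counts were 1159 in the control, 446 in the 3 min and 326 in the 5 min library, which is 2.38-fold lower (2.13 to 2.66) after 3 min and a ratio of 0.474 after 5 min. It was the most abundant of the 28 miRNAs past 1.5-fold, and its interval was the narrowest. miR-148a-3p, which represses the DNA methyltransferase DNMT1 and shares a seed that targets MITF, had 43, 17 and 25 counts, 2.32-fold lower (1.30 to 4.33) after 3 min. Its 5 min ratio was 0.980. The hairpin MIR148A is intergenic (chr7:25949919-25949986). Its family mates lay near control: miR-148b-3p, identical at 20 of 22 bases, had 1423 and 1271 counts (0.975, 0.903 to 1.05), and miR-152-3p, identical at 18 of 21, had 413 and 387 (1.02, 0.888 to 1.18). The family sum, 1879 against 1675 counts, gave 0.973 (0.910 to 1.04), so the total count of this seed was within counting error of control.

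miR-424-5p, of the miR-15/16 family that represses cyclins, had 51, 24 and 27 counts, 1.95-fold lower (1.18 to 3.31) after 3 min with a 5 min ratio of 0.892. Its seed mates miR-16-5p, with 418 and 419 counts (1.09, 0.953 to 1.26), and miR-15b-5p, with 150 and 120 (0.873, 0.681 to 1.12), held most of the family, and the sum gave 0.992 (0.884 to 1.11). The cluster around MIR424 (chrX:134540341-134546711, with MIR424 in an exon of MIR503HG) was mixed. Its most abundant member miR-450a-5p had 1816 and 1775 counts (1.07, 0.999 to 1.14), miR-542-3p 502 and 444 (0.965, 0.848 to 1.10), miR-503-5p 33 and 40 (1.32, 0.813 to 2.17) and miR-503-3p 71 and 47 (0.722, 0.489 to 1.06). No seed mate or cluster neighbour of miR-424-5p that met the count minimum was past 1.5-fold. Below the minimum, miR-450b-5p had 1 and 2 counts.

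Both arms of MIR340 were lower. miR-340-5p, which binds MITF mRNA in melanoma cells, had 4145, 2830 and 1775 counts, 1.34-fold lower (1.28 to 1.41) after 3 min. miR-340-3p had 443, 265 and 133, 1.53-fold lower (1.31 to 1.79), and its ratio was 0.506 after 5 min. MIR340 lies in an intron of RNF130 (chr5:180015303-180015397). The balance of the arms moved by a factor of 0.876 (0.744 to 1.03), which counting error covers.

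The remaining lower miRNAs were scarce. miR-1237-5p, a GC-rich miRNA from an intron of RPS6KA4 (chr11:64368602-64368703), had 61, 28 and 56 counts, 2.00-fold lower (1.26 to 3.24) after 3 min. miR-6765-3p, from an intron of JAG2, had 64, 34 and 39, 1.72-fold lower (1.12 to 2.70). Intervals that reach 1 came with miR-4291 (35, 19 and 11 counts, 1.69-fold lower, 0.940 to 3.12), miR-30d-3p (40, 24 and 22, 1.53-fold, 0.898 to 2.65), miR-4324 (43, 26 and 20, 1.52-fold, 0.910 to 2.57) and let-7i-3p (33, 20 and 14, 1.51-fold, 0.842 to 2.78). The latter is the scarce arm of the hairpin that gives let-7i-5p, with 111578 and 97520 counts.

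Among abundant miRNAs the differences were small in fold and large in counts. miR-221-3p, a repressor of the cell-cycle inhibitor p27 and of the receptor KIT, had 23127, 29736 and 20382 counts. Its ratio of 1.40 (1.38 to 1.43) was the highest among the 58 most abundant miRNAs, those averaging 1000 counts or more. miR-125a-5p had 7569, 9076 and 5513 counts (1.31, 1.27 to 1.35), and miR-222-3p 4738, 5658 and 2219 (1.30, 1.25 to 1.36). miR-29a-3p, a repressor of collagens and other matrix genes, had 11660, 13661 and 11185 (1.28, 1.25 to 1.31). miR-199a-3p followed with 4098 and 4729 counts (1.26, 1.21 to 1.31), miR-22-3p with 1598 and 1801 (1.23, 1.15 to 1.32), miR-31-5p with 1409 and 1580 (1.22, 1.14 to 1.32) and miR-199b-3p with 2073 and 2303 (1.21, 1.14 to 1.29). miR-199a-3p and miR-199b-3p share their seed, length (22 nt) and GC content (40.9%). How reads that match both were assigned is not given, so their ratios are not separate observations.

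On the lower side of the abundant miRNAs, miR-125b-1-3p, the passenger arm of MIR125B1 (chr11:122099757-122099844, in an intron of MIR100HG), stood first. It had 3530, 2290 and 980 counts, 1.41-fold lower (1.34 to 1.49) after 3 min. miR-7-5p, a repressor of EGFR and of KEAP1, the inhibitor of NRF2, had 14408, 10701 and 5489, 1.23-fold lower (1.20 to 1.27). miR-3529-3p, whose hairpin lies antisense to a miR-7 hairpin, had 14868 and 12149 counts, 1.12-fold lower (1.10 to 1.15), and the 2 can share reads if strand was ignored in counting. Smaller differences were seen for miR-744-5p (3610 and 2841 counts, 1.16-fold lower, 1.11 to 1.22), miR-3074-5p (1324 and 1045, 1.16-fold, 1.07 to 1.26), miR-10a-5p (3990 and 3193, 1.15-fold, 1.09 to 1.20) and miR-99a-5p (34423 and 28063, 1.12-fold, 1.11 to 1.14). The hairpin of miR-3074-5p (chr9:95086014-95086094) lies antisense to MIR24-1, so miR-3074-5p can likewise share reads if strand was ignored in counting. The most abundant miRNA of all, miR-21-5p, an oncogenic miRNA of many tumours, had 353933 and 329576 counts, a log2 ratio of 0.02 (0.02 to 0.03) that turned to -0.05 under DESeq2 size factors over all listed miRNAs.

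Grouping by seed gave 30 families with at least 2 measured members, 86 miRNAs in all, of which 14 families had at least 3. Summing the counts of a family avoids the question of how reads were split between near-identical members. At 1.25-fold, 4 family sums were higher and 2 lower, where 18.2% of the 231 single miRNAs were higher and 10.8% lower. The median summed log2 ratio was 0.07. All members lay above control in 13 families and all below in 4, and this held in each of the 7 scalings for 7 and 4 of them. The sign of the sum changed with the scaling for 7 families, namely those of miR-365, miR-25/92, miR-423-5p, miR-26, miR-27, miR-23 and miR-204/211. Of the 28 miRNAs past 1.5-fold, 7 belonged to a family, each to a different one, and 21 to none. Among the 21, miR-4792 and miR-151a-5p had no seed to compare, so mates of these were not sought. Measured miRNAs without a seed could not be found as mates either.

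**Figure D3:**
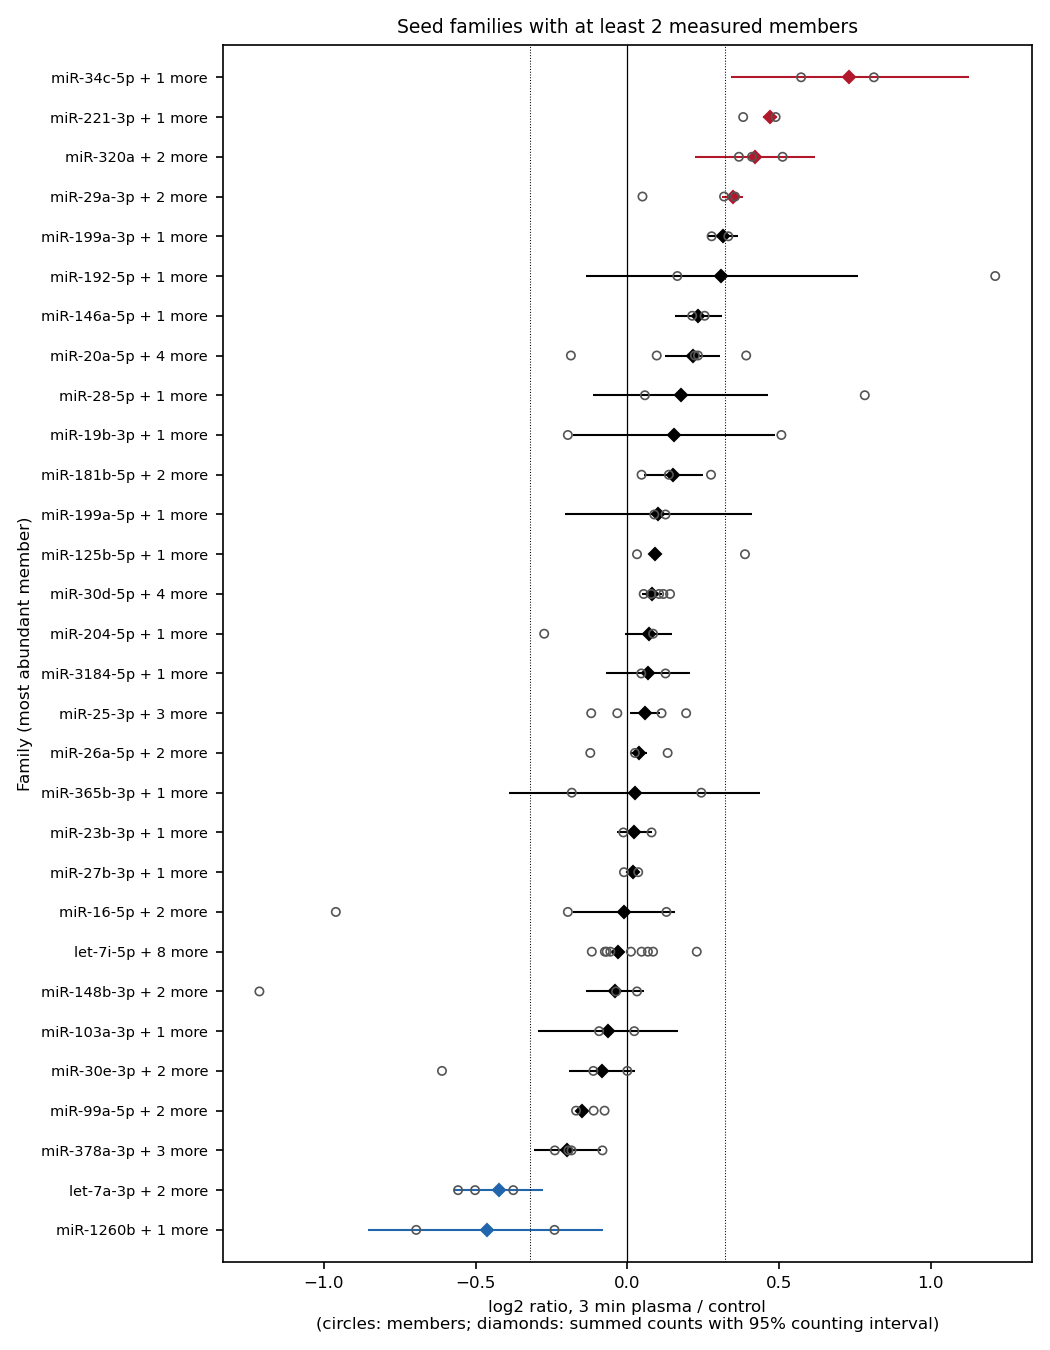
Log2 ratio of 3 min plasma to control (x axis) for the 30 seed families (rows, named by their most abundant member), with members as circles and the family's summed counts as diamonds with exact 95% counting intervals; red and blue diamonds are at least 1.25-fold higher or lower, at the dotted lines. The circles of miR-215-5p (in the row of miR-192-5p), miR-424-5p and miR-148a-3p lie far from their family's diamond.

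After the miR-34 family, the highest sums were those of miR-221/222, miR-320 and miR-29. The miR-221/222 family had 27865 and 35394 counts, a ratio of 1.39 (1.36 to 1.41), and both of its members were higher. Aligned from the 5′ end without gaps, they are identical at 11 of 21 bases. The miR-320 family, whose founding member is made without the enzyme Drosha, had 380 and 466 counts, a ratio of 1.34 (1.17 to 1.54). All 3 of its members were higher: miR-320a had 224 and 265 counts (1.29, 1.08 to 1.55), miR-320b 124 and 162 (1.43, 1.12 to 1.82) and miR-320c 32 and 39 (1.33, 0.812 to 2.19). The miR-29 family had 12028 and 14017 counts, a ratio of 1.27 (1.24 to 1.30), nearly all from miR-29a-3p. miR-29c-3p, identical to it at 21 of 22 bases, had 35 and 40 counts (1.25, 0.772 to 2.02), while miR-29b-3p had 333 and 316 (1.04, 0.885 to 1.21), a log2 ratio small enough to change sign with the scaling.

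Other families on the higher side differed by less. The miR-199-3p pair summed to 6171 and 7032 counts (1.24, 1.20 to 1.29), the inflammation-linked miR-146a-5p and miR-146b-5p to 2656 and 2863 (1.18, 1.12 to 1.24), and the 5 members of the miR-17 family to 1941 and 2064 (1.16, 1.09 to 1.24). In the last, miR-20a-5p had 613 and 737 counts (1.31, 1.18 to 1.46) and miR-106b-5p 113 and 91 (0.879, 0.659 to 1.17). The miR-181 family gave 1.11 (1.04 to 1.19) and the 5 members of the miR-30 family 1.06 (1.03 to 1.08), with miR-30c-5p highest at 3019 and 3051 counts (1.10, 1.05 to 1.16). The miR-125 pair was uneven, since miR-125b-5p had 43083 and 40361 counts (1.02, 1.01 to 1.04) beside the 1.31 of miR-125a-5p.

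On the lower side, the miR-1260 pair, identical at 17 of 18 bases, had the lowest sum, 143 and 95 counts, 1.38-fold lower (1.06 to 1.81). Next came the 3 let-7 3p arms that share a seed. let-7a-3p had 663 and 468 counts (1.30-fold lower, 1.15 to 1.46), let-7b-3p 196 and 122 (1.47-fold, 1.17 to 1.86) and let-7f-1-3p 85 and 55 (1.42-fold, 0.997 to 2.03). Their sum of 944 and 645 gave 1.34-fold lower (1.21 to 1.49). The 5 other measured let-7 3p arms carry other seeds or have none in RefSeq, and they were mixed. Of these, let-7d-3p stood at 1.30 (1.15 to 1.48), let-7e-3p at 1.12 (0.676 to 1.87) and let-7f-2-3p at 1.02 (0.601 to 1.74), while let-7c-3p was at 0.955 (0.506 to 1.79) and let-7i-3p at 0.661 (0.360 to 1.19). The let-7 5p family, which represses RAS and HMGA2, had 9 members and 270402 and 242419 counts, a ratio of 0.978 (0.973 to 0.984). Its members ranged from let-7c-5p, with 23690 and 20021 counts (0.922, 0.905 to 0.940), to let-7d-5p, with 5963 and 6406 (1.17, 1.13 to 1.22), and its most abundant, let-7i-5p, stood at 0.954 (0.946 to 0.962). All 3 members of the miR-99/100 family were lower, for a sum of 0.902 (0.890 to 0.914), as were all 4 of the miR-378 family, for 0.872 (0.808 to 0.941). Of the latter, miR-378a-3p was the most abundant, with 970 and 753 counts (0.847, 0.769 to 0.933).

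By position, 79 miRNAs fell into 25 clusters of hairpins at most 10 kb apart on 1 strand, and 24 clusters had at least 1 member made nowhere else, which the sums use. At 1.25-fold, 3 of the 24 cluster sums were higher and 0 lower, and no test was possible. Of the 231 single miRNAs, 18.2% were higher and 10.8% lower at this size. The MIR221/MIR222 cluster (chrX:45746157-45747124, in introns of MIR222HG) had 28733 and 36289 counts, a ratio of 1.38 (1.36 to 1.40). All 4 of its arms lay above control, with miR-221-5p at 673 and 710 (1.15, 1.03 to 1.28) and miR-222-5p at 195 and 185 (1.03, 0.842 to 1.27), the last changing sign with the scaling. The arms did not move equally. Against its 3p arm, miR-221-5p was 1.22-fold lower (1.09 to 1.36) and miR-222-5p 1.26-fold lower (1.02 to 1.55). The MIR29A/MIR29B1 cluster (chr7:130876747-130877539) had 11701 and 13691 counts, a ratio of 1.28 (1.25 to 1.31), which rests on miR-29a-3p. The MIR215/MIR194-1 cluster, the third, rests on the 8 and 17 counts of miR-215-5p, a ratio of 2.32 (0.949 to 6.21) whose interval includes 1. That miRNA met the count minimum only through its 5 min count.

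**Figure D4:**
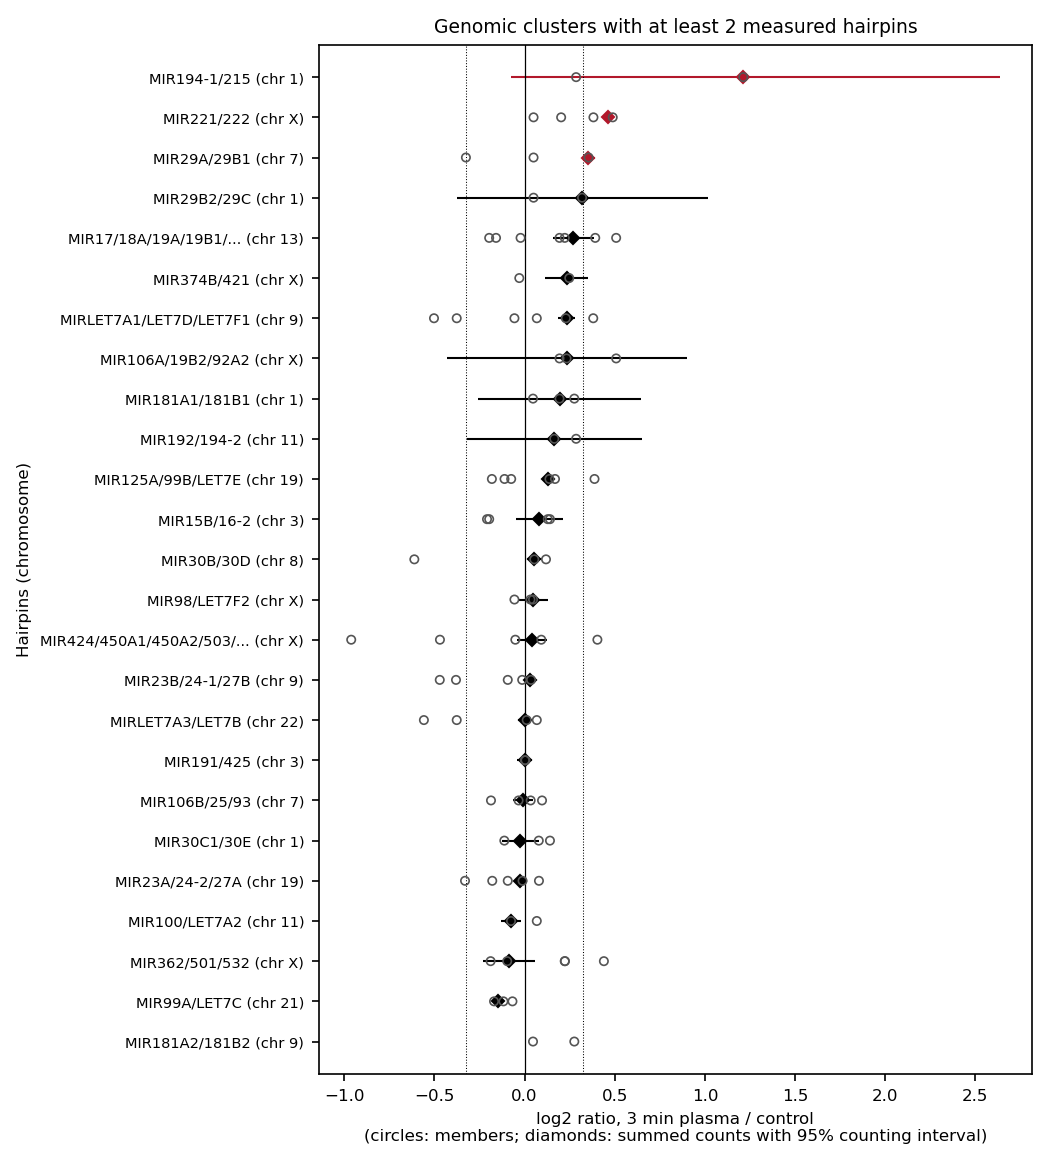
Log2 ratio of 3 min plasma to control (x axis) for 25 genomic clusters (rows), with all measured members as circles and the summed counts of members specific to the cluster as diamonds with exact 95% counting intervals; red diamonds are at least 1.25-fold higher, at the dotted lines. The bottom row has no diamond because both of its miRNAs also come from another cluster, and many rows hold circles on both sides of 0.

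Clusters were often split. In MIR125A/MIR99B/MIRLET7E (chr19:51692612-51693339) the sum gave 1.09 (1.07 to 1.12), but miR-125a-5p stood at 1.31 while its neighbours miR-99b-5p, with 6129 and 5199 counts, stood at 0.926 (0.892 to 0.961), miR-99b-3p at 0.882 (0.812 to 0.958) and let-7e-5p at 0.9502 (0.895 to 1.01). In the let-7 cluster of chromosome 9 (94175957 to 94178920), let-7d-5p and let-7d-3p, the latter with 470 and 561 counts (1.30, 1.15 to 1.48), were higher, while let-7f-1-3p was lower. The MYC-driven MIR17 cluster (chr13:91350605-91351391) summed to 1229 and 1359 counts over the 5 members made there alone, a ratio of 1.21 (1.12 to 1.30). Its most abundant member, miR-92a-3p, which has a further locus, had 2593 and 2719 counts (1.14, 1.08 to 1.21), miR-19b-3p 66 and 86 (1.42, 1.02 to 1.99) and miR-19a-3p 85 and 68 (0.873, 0.625 to 1.22). Lower as a whole was MIR99A/MIRLET7C (chr21:16539089-16539911) with 58137 and 48105 counts, a ratio of 0.903 (0.892 to 0.914). MIR100/MIRLET7A2 stood at 0.949 (0.915 to 0.985), from miR-100-5p alone.

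The balance of the 2 arms of a hairpin does not depend on the scaling, since both arms are counted in the same library. Among 59 pairs with both arms measured, the minor arm was lower relative to the major arm in 36 and higher in 23. The median change was 0.930, the interval lay below 1 for 10 pairs and above 1 for 5, and at 1.25-fold 15 pairs were lower and 11 higher. Percentages below give the minor arm as a share of the summed counts of both arms. Changes are of the ratio of minor to major arm. miR-125b-1-3p, paired with miR-125b-5p, went from 7.57% in the control to 5.37% in the 3 min library, and it was at 3.96% in the 5 min library. The ratio of the arms was 1.44-fold lower after 3 min (1.37 to 1.52), and miR-125b-5p itself stayed close to control. For the other hairpin of miR-125b-5p, miR-125b-2-3p had 104 and 107 counts, a change of 1.10 (0.830 to 1.45). miR-125b-5p, let-7a-5p, let-7f-5p, miR-7-5p and miR-9-5p each come from more than 1 hairpin, so their balances are not those of a lone hairpin.

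Of 8 let-7 pairs, 4 went lower in the same measure and 4 higher, and only let-7a and let-7b had an interval off 1. let-7a-3p went from 3.34% to 2.47% of its pair with let-7a-5p, and stood at 1.95% after 5 min. The ratio was 1.36-fold lower (1.21 to 1.54) after 3 min. let-7b-3p went from 1.78% to 1.21% of its pair with let-7b-5p, and stood at 1.19% after 5 min. Here the ratio was 1.49-fold lower (1.18 to 1.88) after 3 min. The pairs with higher estimates were let-7c (1.03, 0.548 to 1.94), let-7d (1.11, 0.976 to 1.26), let-7e (1.18, 0.708 to 1.98) and let-7f with let-7f-2-3p (1.06, 0.624 to 1.81). The interval lay above 1 for 5 pairs. miR-9-3p, of a neural miRNA, had 112 control and 146 exposed counts, going from 0.659% to 1.02% of its pair with miR-9-5p. The change was 1.55 (1.20 to 2.00), and the share stood at 0.624% after 5 min. miR-455-3p went from 12.2% to 15.6% of its pair with miR-455-5p, a change of 1.33 (1.16 to 1.54), with 15% after 5 min. miR-3184-3p went from 25.5% to 32.3% of its pair with miR-3184-5p, a change of 1.39 (1.12 to 1.73), with 33.9% after 5 min. The other two were miR-7-1-3p against miR-7-5p, with 23 and 31 counts of the minor arm (1.81, 1.02 to 3.26), and miR-423-5p against miR-423-3p, with 242 and 242 (1.25, 1.01 to 1.53). MIR3184 lies antisense to MIR423, so its arms can carry reads of the other hairpin if strand was ignored.

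**Figure D5:**
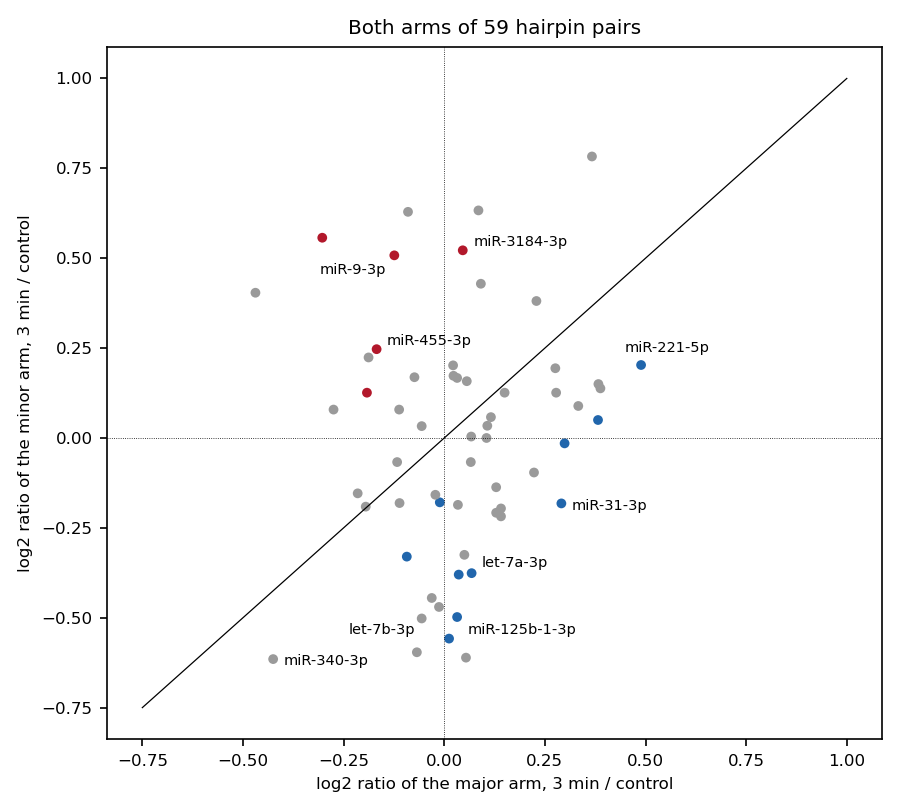
Log2 ratio of 3 min plasma to control for the more abundant arm (x axis) and the less abundant arm (y axis) of 59 hairpin pairs; the diagonal marks an unchanged balance, and blue or red points have a 95% counting interval of the balance wholly below or above it. There are 10 blue and 5 red points, and both arms of miR-340 lie low, close to the diagonal.

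The labelled cell type was checked against 13 melanocyte and melanoma miRNAs, 7 of which met the minimum. miR-221-3p, miR-222-3p and miR-146a-5p were abundant, and the pigment-cell miR-211-5p had 128 and 97 counts (0.827, 0.628 to 1.08). Its seed mate miR-204-5p, with 2608 and 2535 counts, was much the more abundant. miR-137 and the melanocytic miR-506-3p, miR-508-3p, miR-509-3p and miR-514a-3p were at 0 in every library, and miR-182-5p had 4, 5 and 15 counts, so part of the melanoma markers were absent. The 7 summed to 32801 and 40274 counts (1.34, 1.32 to 1.36), mostly miR-221-3p, with a median log2 ratio of 0.09. In the redox-linked list, which includes repressors of NRF2 and KEAP1, 7 of 13 met the minimum. Their median was 0.04, and its sign changed with the scaling. None was past 1.5-fold, beside 6.93% higher and 5.19% lower of all 231, shares too small to expect many among 7. Beside miR-21-5p, miR-7-5p and miR-28-5p, miR-27a-3p had 18427 and 16755 counts (0.992, 0.972 to 1.01), miR-27b-3p 36276 and 34077 (1.02, 1.01 to 1.04) and miR-93-5p 714 and 700 (1.07, 0.963 to 1.19).

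Markers of other cell types ranged from absent to abundant. None of 8 blood and 7 muscle markers met the minimum, and they summed to 18 and 22, and to 15 and 20 counts. Liver miR-122-5p had 114 and 117 counts (1.12, 0.858 to 1.46) and endothelial miR-126-3p 313 and 316 (1.10, 0.939 to 1.29). Of 6 fibroblast markers, 4 met the minimum and summed to 4362 and 5013 counts (1.25, 1.20 to 1.31), nearly all miR-199a-3p, while miR-214-3p, cut from the same transcript as a miR-199a hairpin, had 1 count in each. The part of such cells in the miR-199-3p ratios was not tested. Of 8 neural markers, 5 met the minimum, with 18837 and 16227 counts (0.940, 0.920 to 0.960), mostly miR-9-5p, and miR-124-3p was at 0. miR-128-3p had 1444 and 1540 (1.16, 1.08 to 1.25), miR-129-5p 257 and 232 (0.985, 0.821 to 1.18) and miR-218-5p 139 and 110 (0.864, 0.666 to 1.12). Of 8 non-canonical miRNAs, which skip a step of the usual processing, 4 met the minimum and summed to 496 and 556 counts (1.22, 1.08 to 1.38), with a median log2 ratio of 0.39. Beside the miR-320 members, these include miR-484, with 116 and 90 counts (0.847, 0.636 to 1.13).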

How the data were processed

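The authors deposited raw read counts per mature miRNA for each library, as whole numbers over the same 2588 miRNAs. The submitters' processing notes name Bowtie2, edgeR and bedtools without versions or roles. Not given in the sources used here are the build, the annotation and how strand and multiply matching reads were handled, so near-identical miRNAs and antisense hairpins can share reads. Without molecular identifiers, PCR copies count as reads.

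Counts were scaled by TMM (edgeR 4.0.16, R 4.3.3) over the 231 miRNAs with all 3 libraries; factors were 1.000, 0.991 and 1.008 for control, 3 min and 5 min. Ratios carry exact Clopper-Pearson 95% intervals of the binomial split, and arm balances the exact conditional interval. The ratio step was tested on simulated data. Families share bases 2 to 8; 10 members without a RefSeq sequence were assigned by name. Clusters used GENCODE v29 hairpins. Alternatives covered scaling (with DESeq2 1.42.0), the count minimum, seed length, cluster distance and family sums. Python was 3.11.15, with scipy 1.17.1, numpy 2.4.6, matplotlib 3.10.9 and pandas 2.3.3.

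The members, the 12 lists and the rules were chosen with earlier results of these data known, and the 1.25-fold size for families, clusters and arms was chosen after values were seen. Named miRNAs were those at least 1.5-fold from control after 3 min; the 8 higher and 8 lower that averaged 1000 or more counts and whose interval lay farthest from 1; the most abundant, highest and lowest member of families and clusters with at least 3 members, as far as they bear on a result; the 6 arm balances whose interval bound nearest 1 lay farthest from it; and measured members of the lists. Other arms, seed mates and cluster neighbours of these were added after their values were seen.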

Additional observations from a re-analysis of the deposited data

Results flagged for a closer look

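Flagged here are 2 miRNAs whose exposures lay on opposite sides of control with counting intervals that did not reach it. miR-1237-5p had a log2 ratio of -0.997 after 3 min and 0.629 after 5 min, from 61, 28 and 56 counts in control, 3 min and 5 min. miR-222-3p had 0.382 after 3 min and -0.342 after 5 min, from 4738, 5658 and 2219 counts. They were not the only ones. Among others, miR-128-3p had 0.219 after 3 min and -0.604 after 5 min, miR-92a-3p 0.194 and -0.192, and miR-9-5p -0.124 and 0.153. Each group is 1 library and the control is shared, so none of these differences was tested. Groups of 1 sample cannot be checked for a sample that stands apart.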

How the results depend on the processing

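Of 774 recomputed log2 ratios of 129 named miRNAs under the 6 other scalings, 706 stayed within the counting interval, 57 moved out of it and 11, of miRNAs whose interval lay above 1, turned to below control. Those 11 were small: let-7a-5p (-0.006 with DESeq2 size factors over all listed miRNAs), miR-21-5p (-0.01 with DESeq2 over the filtered miRNAs, -0.05 with DESeq2 and -0.034 with TMM over all), miR-30d-5p (-0.019 and -0.003 with DESeq2 and TMM over all), miR-125b-5p (-0.001 with DESeq2 filtered, -0.042 and -0.026 over all) and miR-27b-3p (-0.038 and -0.022 over all). At 2-fold lower, main count 2, DESeq2 and TMM over all listed miRNAs each gave 4. DESeq2 over all gave 32 intervals above and 53 below 1, against 54 and 33.

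Other count minimums, each with TMM refitted to the miRNAs that met it, also moved the counts. With a mean of at least 10 (289 miRNAs), 13 were 2-fold higher and 6 lower, and 30 and 23 at 1.5-fold. With at least 50 (164 miRNAs), there were 2 and 1, and 7 and 4. With only 1 count in both libraries required (492 miRNAs), there were 53 and 30, and 79 and 66, and 38 intervals lay above 1 and 51 below. Without the most abundant member, 7 families were 1.25-fold higher (main 4), 1 cluster higher (main 3) and 2 lower (main 0). At 1.5-fold, a size chosen after seeing the data, 1 family was higher and 0 lower, 1 cluster higher, and 4 arm balances higher and 1 lower. With both arms at a mean of at least 50 counts, 5 balances were 1.25-fold higher (main 11) and 8 lower (main 15). The causes were not tested. No paired analysis was possible because each group is 1 library, and none could be left out. Depth limits the 100 miRNAs with a mean of 20 to 100 counts most, where 17 intervals lay off 1.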
